A study of Danio rerio with 2 samples.

Results

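The 9 genes described here belong to the versican and hyaluronan matrix of the heart, measured in zebrafish (Danio rerio). They are the versican genes vcana and vcanb, the hyaluronan synthase genes has1, has2 and has3, the link protein genes hapln1a and hapln1b, the receptor gene cd44a and the precursor enzyme gene ugdh. Each was found by its symbol in the authors' comparison table and joined by Ensembl identifier to the deposited counts. All 9 were found, among 26126 listed genes, and all 9 were among the 24009 genes with at least 10 counts over both libraries. RNA came from hearts of AB-background animals at 48 hours post fertilization. One library is from wild-type animals and 1 from animals labelled kctd10 -/-. The kctd10 gene encodes a substrate adaptor of the Cullin 3 ubiquitin ligase. The sources used here give neither the mutant allele nor how many hearts went into a library.

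Versican is a large chondroitin sulphate proteoglycan whose head binds hyaluronan, and link proteins hold that bond in place. Hyaluronan is an unsulphated sugar chain that synthases in the cell membrane extrude from UDP-glucuronic acid and UDP-N-acetylglucosamine. Together they make up much of the cardiac jelly, the swollen matrix between heart muscle and endocardium from which the valve cushions form. Mice without Has2 or versican fail to form cushions, and zebrafish without ugdh lack the valve between atrium and ventricle.

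Gene counts summed to 150001992 in the wild-type library and 139099775 in the mutant library. With 1 library per genotype there is no replicate check and no test between genotypes. Every ratio divides the level in the library labelled mutant by that in wild type, and its exact 95% interval covers counting error only. A gene was called higher where all of that interval exceeded 1.5, and lower where all of it was under 0.667, the inverse. The kctd10 transcript itself had 8226 and 19942 counts, more in the library labelled mutant (2.57-fold, 2.50 to 2.64), which does not check the labels because a sequence mutation need not lower transcript amount. Tissue markers differed between the libraries. Summed over 8 heart muscle markers the level in CPM (counts scaled to library size) was 7724 in wild type and 12344 in the mutant library, and 5 of the 8 were called higher. Of 5 epicardial markers 4 were higher (58.1 and 141 CPM in sum), of 6 endocardial and vessel markers 1 was higher and 1 lower (355 and 443), and of 6 myeloid markers 5 were higher (114 and 227). Of 10 skeletal muscle markers 9 were lower (1813 and 664), of 8 cartilage and notochord markers 4 (611 and 259), and of 6 skin and fin fold markers 3 (37684 and 25713). Of 4 yolk and liver markers 3 were higher (3253 and 6495), and of 5 lens markers 4 (319.7 and 978). No marker of these lists was at 0 in either library, so both libraries held RNA of genes marking tissues outside the heart. The skin gene krt4 alone had 4500426 counts in wild type and 2975239 in the mutant library. Which tissue the counts of the genes described here came from was not tested. The part of tissue content in the ratios below was not tested, and in such bulk samples a change in the number of cells of a type cannot be told apart from a change in RNA per cell.

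Of the 9 genes, vcana and has1 were called higher and has3 lower. The other 6 met neither condition. Across all 24009 measured genes 6.03% were called higher and 6.66% lower. On the log2 scale the 9 genes had a median ratio of 0.44, against 8.3e-04 for all measured genes. The quartiles of all genes were −0.29 and 0.28 on that scale. When all ratios were scaled so that the median of 30 cardiac sarcomere genes was no change, every log2 ratio shifted by −0.34. That list was itself mixed, with 8 genes higher, 6 lower and log2 ratios from −3.28 to 1.17. Among its lower genes tcap, neb and tpma had ratios of 0.103, 0.131 and 0.155, in the direction of the skeletal muscle markers. The heart muscle markers, most of which also stand in the sarcomere list, had a median log2 ratio of 0.67, above no change. The same 2 members were then called higher, and vcanb joined has3 among the lower ones. Over all genes that scaling moved the higher share of the called genes from 47.5% to 16.6%.

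**Figure D1:**
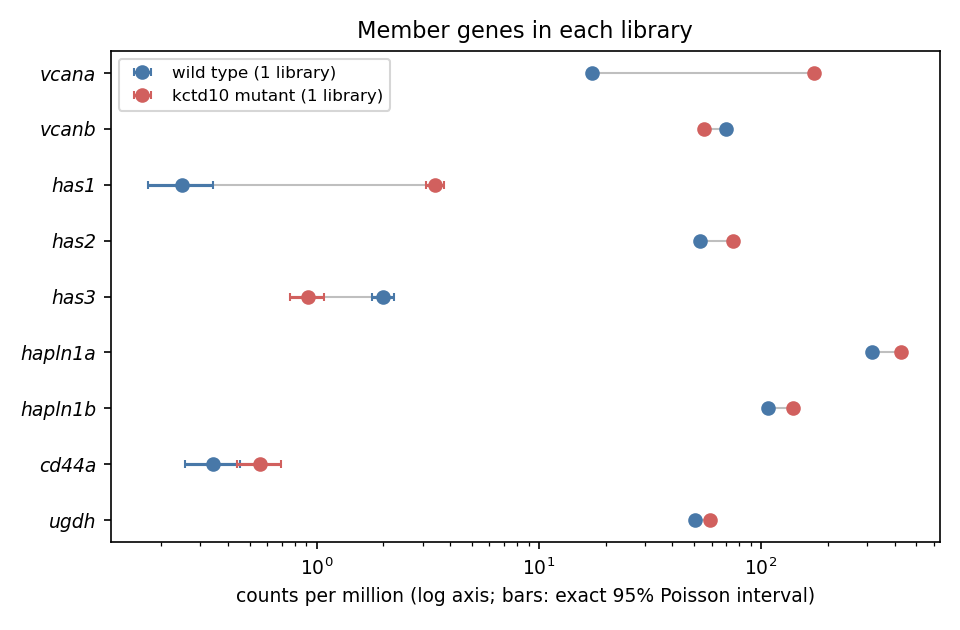
Level of each of the 9 genes in CPM (log axis) in the wild-type and kctd10 mutant libraries, with exact 95% Poisson intervals. The gap between libraries is widest for vcana (17.4 and 174) and has1 (0.249 and 3.41), and has3 and vcanb are the genes whose mutant value lies to the left.

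The versican genes, which encode the proteoglycan core, had ratios on opposite sides of 1. vcana (ENSDARG00000078680) had 2581 counts in the wild-type library and 24458 in the mutant library, or 17.4 and 174 CPM. The ratio was 10.04 (9.64 to 10.5). It ranked 75th from the top among all measured genes. Among the 2055 genes with at least as many counts over both libraries as vcana, none had a higher ratio. The gene si:dkey-8k3.2, with slightly fewer counts (1169 and 24765), had one. Its paralogue vcanb (ENSDARG00000009401) had 10324 and 7814 counts, or 69.4 and 55.7 CPM. The ratio of 0.802 (0.778 to 0.826) lay below no change without reaching the rule for a lower gene. Under the sarcomere scaling vcana stood at 7.95 (7.63 to 8.28) and vcanb at 0.635 (0.616 to 0.654).

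The balance within the pair shifted toward vcana in the mutant library. vcana made up 20% of the counts of both versican genes in wild type (exact 95% interval 19.3 to 20.7) and 75.8% in the mutant library (75.3 to 76.3). Such shares depend on transcript length, so only their change between libraries is read. The odds of a versican count being vcana were 12.5 times as high in the mutant library (11.9 to 13.2), a value that needs no scaling between libraries. Both genes summed to 86.8 and 230.0 CPM, 2.65-fold more in the mutant library (2.60 to 2.70).

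The hyaluronan synthase genes showed 3 different ratios. has1 (ENSDARG00000042983) had 37 counts in wild type and 478 in the mutant library, or 0.249 and 3.41 CPM. Its ratio of 13.7 (9.79 to 19.7) was the 43rd highest of all measured genes and overlapped the interval of vcana. has2 (ENSDARG00000036987), the synthase gene known for its role in the cardiac jelly, had 7877 and 10464 counts, or 53.0 and 74.6 CPM. Its ratio was 1.41 (1.37 to 1.45), under the 1.5-fold limit, and 1.11 (1.08 to 1.15) under the sarcomere scaling. has3 (ENSDARG00000057210) had 296 and 128 counts, or 1.99 and 0.912 CPM. It was 2.18-fold lower in the mutant library (1.77 to 2.71), and 1236th from the bottom among all measured genes. It no longer passed with a 2-fold limit. The low counts of has1 and has3 give them wider intervals than has2.

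has2 kept nearly all counts of the synthase family in both libraries. Its share was 95.9% (95.5 to 96.4) in wild type and 94.5% (94.1 to 94.9) in the mutant library. has1 went from 0.451% (0.318 to 0.621) to 4.32% (3.95 to 4.71), and has3 from 3.61% (3.21 to 4.03) to 1.16% (0.966 to 1.37). The odds ratio of has1 against has3 was 29.7 (19.9 to 45.4). Against has2, the odds of has1 were 9.72 times as high (6.94 to 14.0). The 3 genes summed to 55.2 and 78.9 CPM, 1.43-fold more (1.39 to 1.47), close to the ratio of has2 alone.

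**Figure D2:**
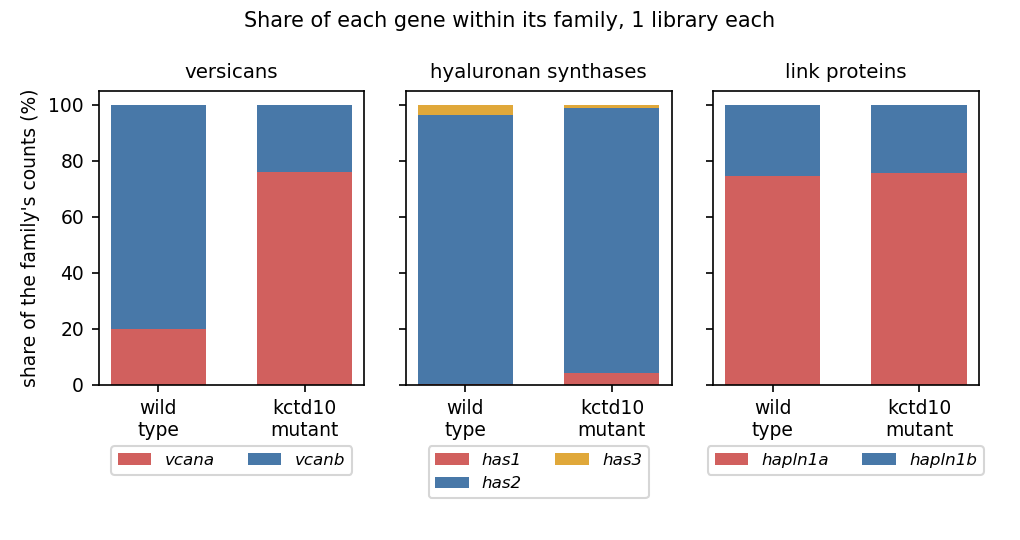
Share of each gene in the summed counts of its family (percent, bars stacked from 0) in the single library of each genotype. vcana goes from 20% to 75.8% of versican counts, has2 holds 95.9% and 94.5% of synthase counts, and hapln1a 74.5% and 75.4% of link protein counts.

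The link protein genes had similar ratios. hapln1a (ENSDARG00000089769) had 47041 and 60157 counts, or 316 and 429 CPM, a ratio of 1.35 (1.34 to 1.37). hapln1b (ENSDARG00000068516) had 16115 and 19607 counts, or 108 and 139.7 CPM, a ratio of 1.29 (1.26 to 1.32). Neither met the rule, and under the sarcomere scaling the ratios were 1.07 (1.06 to 1.09) and 1.02 (0.999 to 1.04). hapln1a held 74.5% of the counts of the pair in wild type and 75.4% in the mutant library, an odds ratio of 1.05 (1.03 to 1.08).

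The receptor gene could not be placed at this depth, and the precursor enzyme gene met neither condition. cd44a (ENSDARG00000087863) encodes a surface receptor through which cells bind hyaluronan. It had 51 and 78 counts, or 0.343 and 0.556 CPM, and its ratio of 1.62 (1.12 to 2.35) is too imprecise at this depth to place it on either side of 1.5-fold. ugdh (ENSDARG00000019838) encodes the enzyme that makes UDP-glucuronic acid, the shared precursor of hyaluronan and chondroitin sulphate. It had 7511 and 8275 counts, or 50.5 and 59.0 CPM, with a ratio of 1.17 (1.13 to 1.20), which turned to 0.924 (0.895 to 0.953) under the sarcomere scaling. The odds of has2 against ugdh were 1.21 times as high in the mutant library (1.16 to 1.26).

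**Figure D3:**
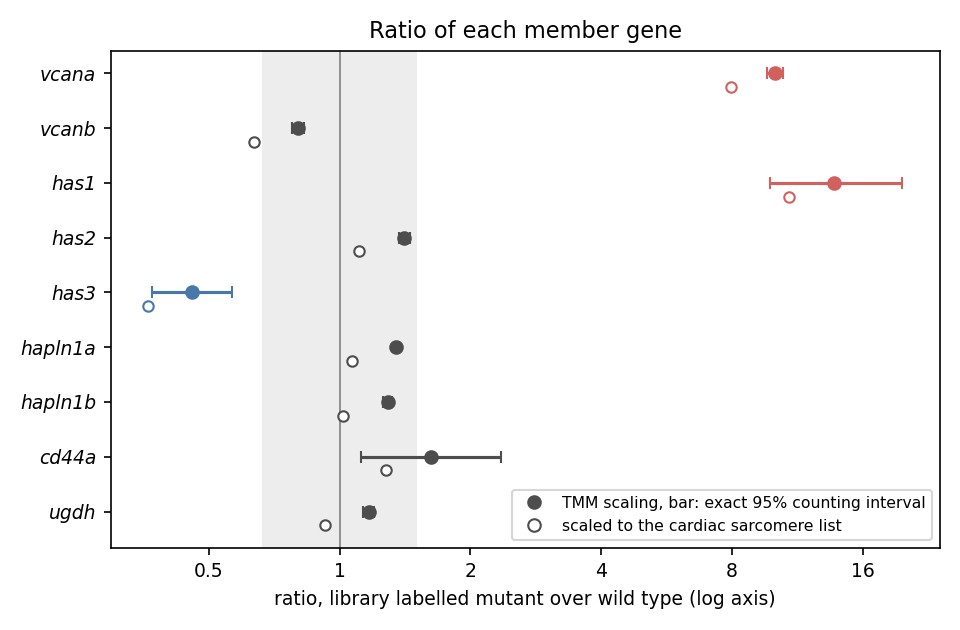
Mutant over wild-type ratio of each gene (log axis), with exact 95% counting intervals. Open circles give the ratio scaled to the cardiac sarcomere list, and the grey band spans the inverse of 1.5 to 1.5. Only vcana, has1 and has3 have whole intervals outside the band under the main scaling, while the open circle of vcanb (0.635) also lies outside and that of ugdh (0.924) crosses 1.

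Each versican gene lies beside a link protein gene in the zebrafish genome. In the RefSeq annotation of the assembly GRCz12tu, hapln1a is the next protein-coding gene after vcana, and hapln1b the next after vcanb. The neighbours did not share a ratio. The odds of vcana against hapln1a were 7.41 times as high in the mutant library (7.10 to 7.73), while those of vcanb against hapln1b were 0.622 times as high (0.600 to 0.645). Among the 3 protein-coding genes on each side of every member, 36 other genes were measured. Of these, slc1a2a (1 and 12 counts) and apip (3120 and 4641 counts) beside cd44a were called higher. The gene si:dkey-79d12.5 (2422 and 1226 counts) near has1 was called lower. Over all measured genes 6.03% were called higher and 6.66% lower. None of the 3 called neighbours lay within 3 genes of vcana or vcanb. The genes at positions 2 and 3 after vcana, edil3a and LOC101884613, were not matched and have no value. These pairs and neighbours were chosen after the values were seen.

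**Figure D4:**
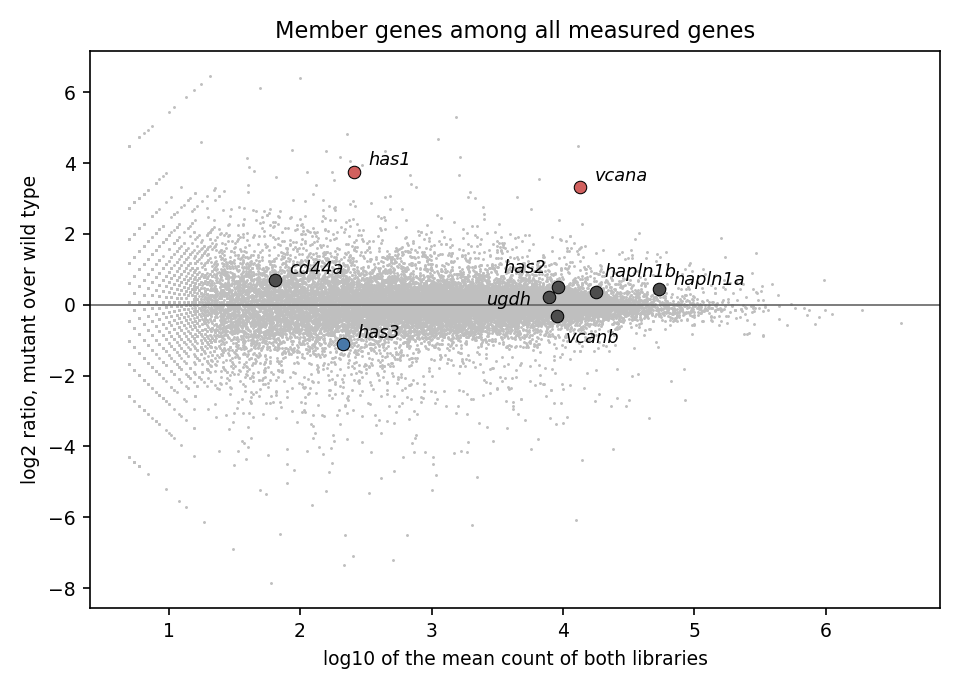
Log2 ratio of the mutant over the wild-type library against log10 of the mean count of both libraries, for 24009 measured genes (grey) and the 9 named genes. vcana (3.33) lies above every other gene with at least as many counts, has1 (3.76) lies at the upper edge of genes with few counts, and has2, hapln1a, hapln1b, ugdh and vcanb lie within the grey cloud.

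The authors' own folds had the same directions. They come from the same 2 libraries, so they are no independent check. In the authors' deposited table of Ensembl genes, the mutant over wild-type log2 fold was 3.32 for vcana and 3.77 for has1, and the linear fold was 1.40 for has2 and 0.456 for has3. In the authors' deposited table the DESeq adjusted p-value was 1.08e-11 for vcana, 1.50e-05 for has1 and 1 for the other 7 members, has3 included. There 442 of 26126 genes (1.69%) had an adjusted p below 0.05. These p-values were computed from 1 library per genotype, so they contain no measure of the spread between animals. The authors' deposited table for UniGene clusters held 6 of the 9 symbols, with folds of 12.75 for has1, 1.35 for has2, 0.46 for has3, 1.31 for hapln1a, 1.18 for ugdh and 0.81 for vcanb.

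Genes whose ratio lay nearest to those of vcana and has1 were named by their distance on the log2 scale over the 2 libraries. For vcana these were mamdc2a (144 and 1375 counts, 10.1-fold), ms4a17a.6 (7 and 73 counts, 11.0-fold) and ghrh (24 and 240 counts, 10.6-fold). For has1 they were tmem196b (25 and 326 counts, 13.8-fold), batf (6 and 83 counts, 14.7-fold) and itga2.1 (16 and 208 counts, 13.8-fold). All 6 had far fewer counts than vcana. The widest intervals, of ms4a17a.6 (5.10 to 28.4) and batf (6.45 to 41.1), do not resolve how near these ratios lie. With 2 libraries this likeness is a single ratio and describes no profile.

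Other genes of this matrix were counted in 6 lists, which together held 128 measured genes. Of these 15 (11.7%) were higher and 10 (7.81%) lower, beside 6.03% and 6.66% of all genes. On the log2 scale their median was 0.12. The lists were chosen with earlier results of these data known, so these shares only describe the listed genes. Under the sarcomere scaling 9 (7.03%) were higher and 17 (13.3%) lower, beside 3.14% and 15.8% of all genes.

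Apart from the hyaluronan synthase genes, the listed enzymes that supply and build the sugar chains did not pass the rule in either direction. The shares over all genes were 6.03% higher and 6.66% lower, so most genes of any kind were not called. All 16 genes of UDP-sugar supply and all 29 genes of chondroitin sulphate synthesis met neither condition. Their median log2 ratios were 0.12 and 0.064, and −0.22 and −0.27 under the sarcomere scaling. The most counted member of each was gpia, a glucose phosphate isomerase gene (24986 and 29516 counts, ratio 1.25), and papss2b, which makes the sulphate donor (12106 and 11946 counts, ratio 1.05). The chain-extending gene chsy1 had a ratio of 1.36 (1.3 to 1.42), and uxs1, which turns UDP-glucuronic acid into UDP-xylose, one of 1.1 (1.06 to 1.14).

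Of 26 genes that bind, carry or break down hyaluronan, 2 were higher and 5 lower, beside 6.03% and 6.66% of all genes. Their median of 0.12 turned to −0.22 under the sarcomere scaling. There 1 (3.85%) was higher and 6 (23.1%) lower, beside 3.14% and 15.8% of all genes. The aggrecan genes acanb (128 and 16 counts) and acana (801 and 226 counts), which encode the main cartilage proteoglycan, were 7.55-fold and 3.35-fold lower. The brain proteoglycan genes bcan (1.93-fold) and ncanb (1.73-fold) were lower, while ncana, with more counts than these (12474 and 9654), met neither condition at a ratio of 0.820. Also lower was the link protein gene hapln4 (98 and 21 counts, 4.41-fold), known from brain in mammals. acana also stands in the cartilage and notochord list, whose summed level was lower in the mutant library, and of 5 nervous system markers 1 was lower (2513 and 1819 CPM in sum). The higher genes were tnfaip6, which encodes a hyaluronan-binding protein induced in inflammation in mammals (1286 and 3026 counts, 2.49-fold, 2.33 to 2.66), and hyal1, a hyaluronidase gene (281 and 464 counts, 1.75-fold, 1.51 to 2.04). The call of hyal1 ended with DESeq2 size factors, upper-quartile factors, the sarcomere scaling, the 99% interval or the 2-fold limit. The most counted gene, hmmr, had a ratio of 0.826. Among other receptors, cd44b had 20 and 31 counts and a ratio of 1.64 (0.907 to 3.04), lyve1a had one of 1.33 and stab2 one of 0.958.

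Of the 10 measured genes of matrix proteases and their inhibitors, 6 were higher and none was lower. Of all genes 6.03% were higher and 6.66% lower. The list had a median log2 ratio of 0.80, and 0.46 under the sarcomere scaling. There 3 (30%) were higher and 0 lower, beside 3.14% and 15.8% of all genes. adamts15a and adamts8a, of the group of proteases that cut versican and aggrecan in mammals, had 5476 and 11617 counts (2.25-fold, 2.18 to 2.32) and 465 and 1119 counts (2.55-fold, 2.29 to 2.85). adamts9, another member of that group, had a ratio of 1.26 (1.18 to 1.34). The other 4 higher genes are not known mainly as versican-cleaving enzymes. timp2b encodes an inhibitor of metalloproteases (1896 and 5393 counts, 3.01-fold). mmp14a (1.84-fold) and mmp2 (21982 and 34788 counts, 1.68-fold) encode metalloproteases of broad range, and adamts3 (1.80-fold) a procollagen-processing enzyme in mammals. The list is partial, with 10 of its 16 symbols matched. It has no value for adamts1, adamts4, adamts5, adamts15b, adamts20 or timp3, whose symbols were not matched.

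Of 25 genes for proteins that bind versican or act beside it, 2 were higher and 3 lower, beside 6.03% and 6.66% of all genes. The microfibril gene fbn1 had 133 and 686 counts and was 5.46-fold higher (4.53 to 6.63), and fbln2, a fibulin gene, was 1.66-fold higher (1.61 to 1.71). The matrix genes tnr (1149 and 363 counts) and bgnb (504 and 234 counts) had ratios of 0.335 and 0.492. nrg1, a ligand of the ErbB receptors, had a ratio of 0.611 (0.559 to 0.666), and its call ended with library totals, the 99% interval or the 2-fold limit. The most counted gene, the fibronectin gene fn1b, had one of 0.966. The median of 0.074 turned to −0.26 under the sarcomere scaling, with 1 higher and 8 (32.0%) lower, beside 15.8% of all genes lower under that scaling.

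Among 22 genes of the atrioventricular canal and of the heart regulators around it, where has2 and versican are made, 5 were higher and 2 lower. Of all genes 6.03% were higher and 6.66% lower. crip2, which encodes a LIM-domain protein, had the highest ratio of the 22, with 18791 and 44133 counts (2.49-fold, 2.45 to 2.53). gata4, a heart regulator, had 4287 and 8316 counts (2.05-fold, 1.98 to 2.13), and twist1b and hey2 were 2.18-fold and 2.19-fold higher. The flow-responsive genes klf2a (7640 and 3547 counts) and klf2b (28328 and 12201 counts) had ratios of 0.492 and 0.456. The canal genes tbx2b and foxn4 had ratios of 1.08 and 0.965, and notch1b, the most counted, one of 0.913. Ratios of the 15 genes that met neither condition ran from 0.701 (sox9a) to 1.53 (gata5), with bmp4 at 1.48 (1.45 to 1.51). The median of 0.17 turned to −0.17 under the sarcomere scaling, with 4 (18.2%) higher and 3 (13.6%) lower, beside 3.14% and 15.8% of all genes.

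**Figure D5:**
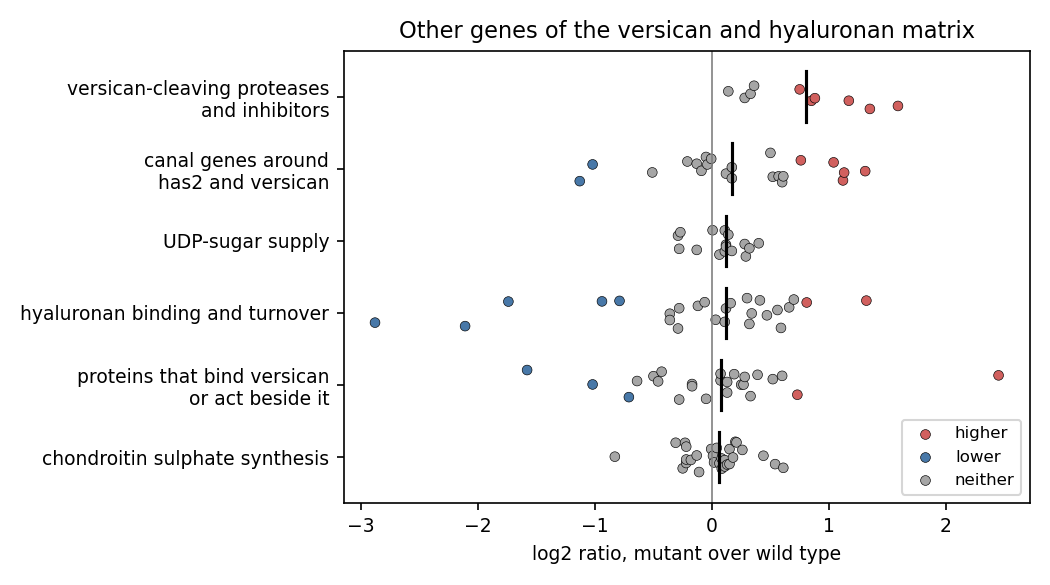
Log2 ratio of the mutant over the wild-type library for each measured gene of the 6 lists of other matrix genes (points, spread vertically for display), coloured by call, with the list median as a bar. The protease and inhibitor list has its median at 0.80 and no lower gene, while both lists of sugar-chain enzymes hold no called gene.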

How the data were processed

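For each library the authors deposited unnormalized read counts of Ensembl genes. TopHat, DESeq and the genome build Zv9 appear in the submitters' processing notes, while the counter, annotation release and use of strand are not stated there. The line naming no gene held 9.21% and 9.17% of counts and was left out. The authors' deposited comparisons give a fold, log2 fold, p-value and adjusted p-value, as the file headers name them, and for UniGene clusters a fold headed OE over CON, whose first line names mutant against wild type. Another 7 columns of per-sample values or means were not used.

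Libraries were scaled by TMM (edgeR 4.0.16, R 4.3.3) on genes with at least 10 counts. Ratios have Clopper-Pearson intervals and the log2 ratio adds 0.5 to each count. Balances within families are conditional odds ratios with exact intervals (SciPy 1.17.1). The calling step was tested on simulated counts that held counting error only, so that test says nothing about spread between animals or tissue content. Amplified reads are not independent molecules. Levels were not divided by transcript length. Shares and sums over different genes are therefore of counts and do not compare their transcript numbers. Paralogues may share reads. Other settings tried were scaling by DESeq2 1.42.0, by totals, by upper quartile and by the sarcomere list, limits of 2-fold, 50 counts, no minimum and 99%, and the authors' folds.

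The members and lists were chosen with earlier results of these data known. Of 251 list entries 226 matched a gene, by the authors' names or a current name table. Named genes are all members, the 3 genes nearest in ratio to vcana and to has1 with a symbol and at least 50 counts (clone names left out), and, per list, up to 4 called genes a direction and the most counted one. Others (ncanb, adamts3, adamts9, chsy1, uxs1, cd44b, lyve1a, stab2, tbx2b, foxn4, sox9a, gata5, bmp4, ncana, tcap, neb, tpma and si:dkey-8k3.2) were chosen after their values were seen.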

Additional observations from a re-analysis of the deposited data

How the results depend on the processing

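vcana and has1 were called higher and has3 lower under DESeq2 size factors, library totals, upper-quartile factors, at least 50 counts, no count minimum and the 99% interval. With the interval beyond 2-fold, 2 members were higher and 0 lower, 635 and 677 of all genes were higher and lower, and 8 and 5 of the other matrix genes. With the sarcomere median set to no change, 2 members were higher and 2 lower, 754 and 3800 of all genes, and 9 and 17 of the other matrix genes, since that scaling shifts every ratio downward. The ratio of each called member kept its side of 1 under every scaling and in the authors' folds, which come from the same 2 libraries. Of 51 alternative values for single genes and pairs 43 stayed within the counting interval, and 7 of the 8 that moved did so under the sarcomere scaling. Leaving out a library was not possible, and no paired analysis was possible because each genotype has 1 library. Depth limits cd44a, cd44b and has1, whose intervals are wide.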
